A study of Mus musculus with 2 samples.

Results

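The genes described here are those of the integrated stress response and of the serine and one-carbon pathways that it feeds, 35 genes chosen by name from 20660 named genes with a probe on the array. In the integrated stress response, kinases that sense amino acid shortage, heme shortage or stress of the endoplasmic reticulum phosphorylate the translation factor eIF2, which slows most protein synthesis while the transcription factor ATF4 is made in greater amounts from its existing mRNA. ATF4, together with C/EBP partners, then acts on genes for amino acid uptake, asparagine and serine synthesis, mitochondrial folate enzymes and tRNA charging, and on feedback genes that restore translation. The liver holds large amounts of folate and sulfur amino acid enzymes in any case, so only some of these genes serve as readouts of stress there. The livers came from CREBH-Tg mice and from WT mice, both on the C57B6J background and both fed the HFHS diet for 12 weeks. CREBH is a membrane-bound bZIP transcription factor of the liver encoded by Creb3l3, and the transgene is a cDNA for the active form of the human protein, expressed chiefly in liver. RNA of pooled livers from each genotype, carrying the dye Cy3, was read on a single Agilent array. The sources used here give no ages, sexes or numbers of mice for the pools.

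There was no replicate of either genotype, so no difference could be set against variation between mice or between pools. Signals are given as multiples of the 75th percentile of processed intensity of the same array, which was 309 on the CREBH-Tg array and 333 on the WT array, and differences as log2 ratios of CREBH-Tg over WT. Each probe of the 35 genes was spotted once. The error given is the 95% range of single-spot log2 ratios among 276 probes spotted at least 5 times, taken in 3 signal classes with the same number of genes each. Given as plus or minus, it was 0.40 for dim genes, 0.17 for genes of middle signal and 0.095 for bright genes. This range covers spot noise only. Hepatocyte markers, such as Alb and Ttr, were all measured (8 of 8) and had summed signals of 4027 in CREBH-Tg and 3780 in WT, so the tissue label fits its markers. The sums were 86.4 in CREBH-Tg and 98.8 in WT for 7 of 8 macrophage markers, 14.3 in CREBH-Tg and 13.1 in WT for 7 of 8 lymphocyte markers, and 77.5 in CREBH-Tg and 74.7 in WT for 8 of 8 stellate cell and fibroblast markers. They were 118 in CREBH-Tg and 107 in WT for 8 of 8 endothelial markers, 1.73 in CREBH-Tg and 2.19 in WT for 5 of 6 cholangiocyte markers, and 493 in CREBH-Tg and 499 in WT for 4 of 5 erythroid markers. Adipocyte markers, with 4 of 6 measured, had sums of 8.40 in CREBH-Tg and 6.68 in WT and the highest median log2 ratio of these lists, 0.97. Their part in the results below was not tested. In pooled tissue, fewer cells of a type and less RNA per cell cannot be told apart.

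A few transcription factor, feedback and effector genes of the stress response were higher in CREBH-Tg liver. Asparagine synthetase was lower, and most of the other genes differed little. Both arrays measured 32 of the 35 genes well above background. Of these, 3 were at least 1.5-fold higher in CREBH-Tg, where 2.33% of all 13881 genes measured on both arrays were, and 1 was lower by 1.5-fold or more, where 2.23% of all genes were. With scaling to the median these shares of all genes were 3.32% higher and 1.62% lower, and with values from the authors' table, 1.89% higher and 2.76% lower. The higher genes were Atf3, Chac1 and Trib3, and the lower gene was Asns. Each of these genes has 1 probe only. Where a gene had 2 measured probes, their log2 ratios differed by 0.040 (Atf4) to 0.65 (the dim Psat1). None of the 32 was at least 2-fold higher (0.663% of all genes) or at least 2-fold lower (0.670% of all genes). The transcription factor Atf5 lay just inside 1.5-fold at 1.48-fold higher, and Nupr1 at 1.44-fold higher, each likewise with 1 probe. Beyond the 95% range of spot noise, 12 of the 32 were higher, where 21.0% of all genes were, and 5 were lower, where 13.2% of all genes were. The 12 include Psat1 and Eif2s1, for each of which the other probe gave the opposite sign. Of the 32 genes, 18 were bright, 11 of middle signal and 3 dim, whereas all genes fall equally into the 3 classes. The noise range is narrowest for bright genes, so the shares of all genes are not a matched background. The median log2 ratio of the 32 genes was 0.078, against 0.027 over all genes, and 22 of the 32 lay above 0, as did 56.2% of all genes. Over all bright genes the median was 0.051. The number above 0 was 16 with the authors' value table and 26 with scaling to the median. Each of these settings shifts every log2 ratio by about the same amount, the former down and the latter up. The median over all genes moved with them, to -0.034 with the authors' value table and 0.116 with scaling to the median. The number of the 32 genes above the median of all genes stayed at 22 under both.

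**Figure D1:**
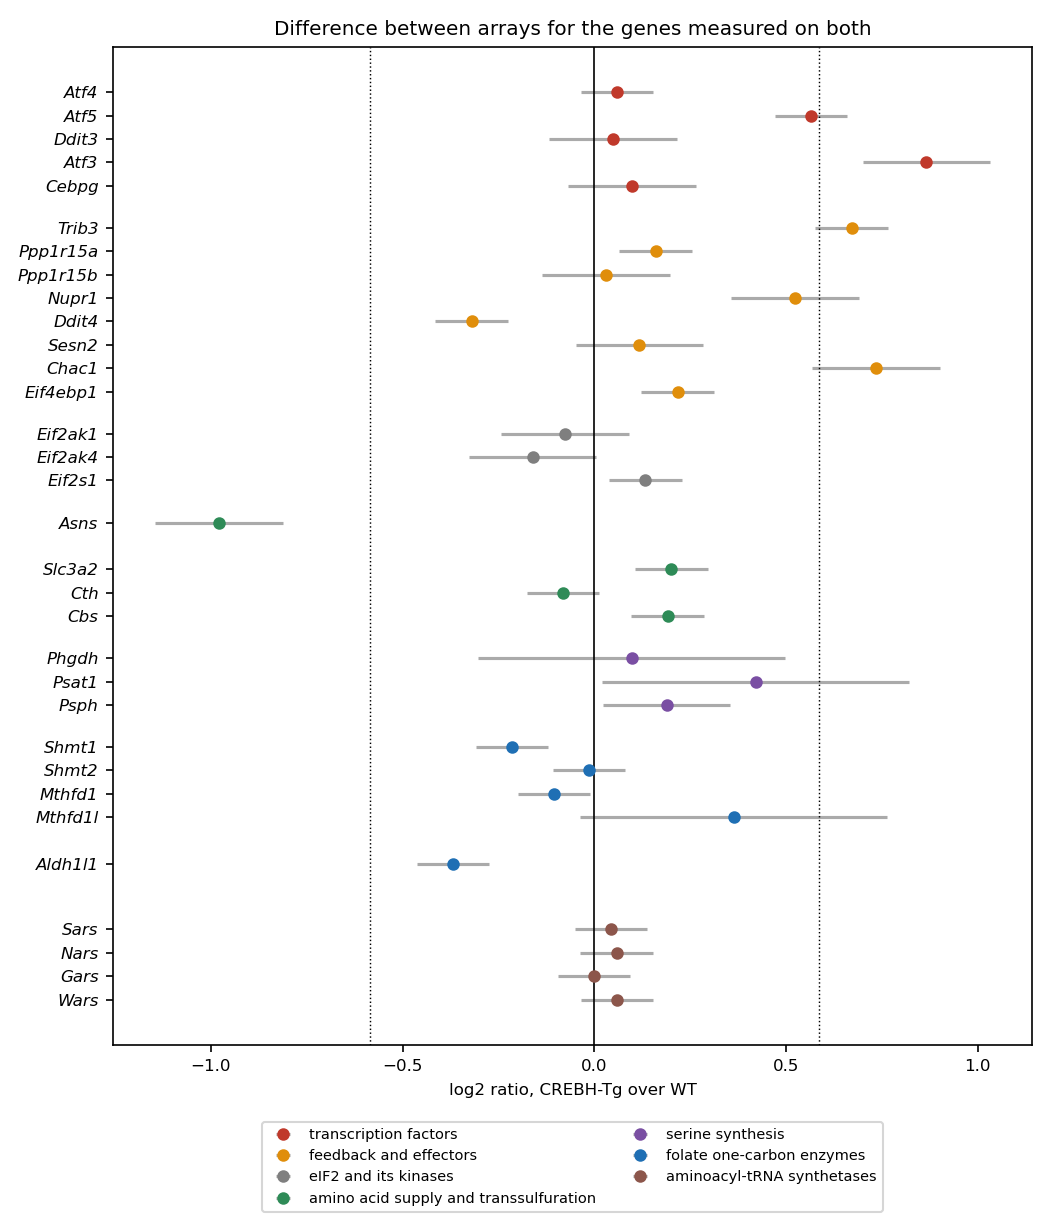
The horizontal axis is the log2 ratio of CREBH-Tg over WT for the 32 genes measured on both arrays, grouped by role from top to bottom. Bars are the 95% range of spot noise for the signal class of each gene and dotted lines mark 1.5-fold. Atf3, Chac1 and Trib3 lie beyond the right-hand line and Asns beyond the left-hand line.

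**Figure D2:**
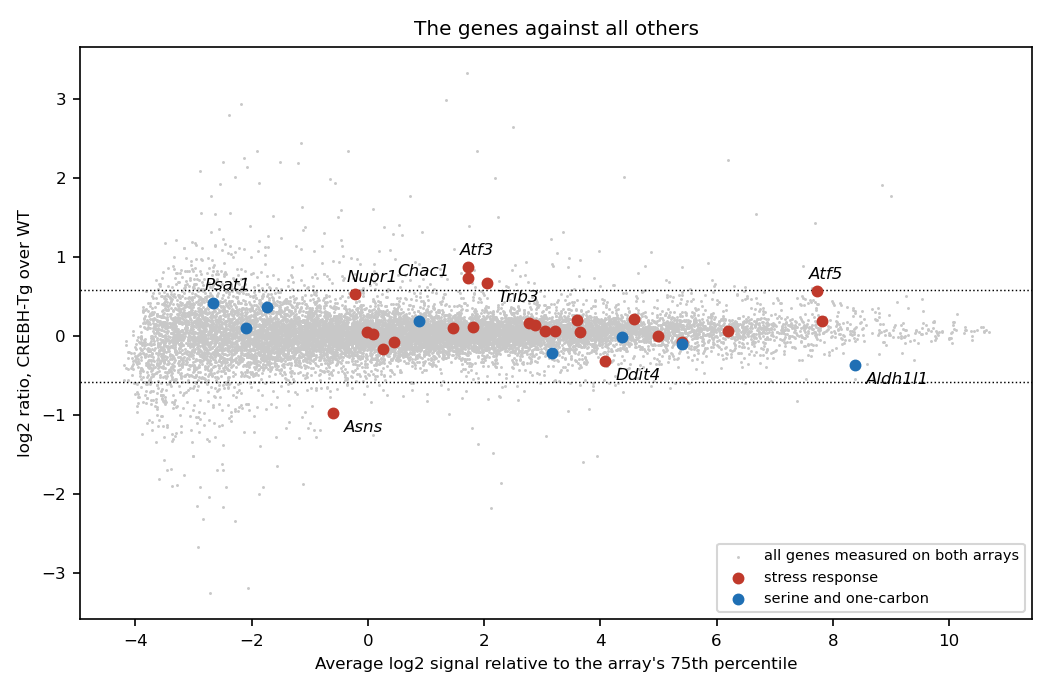
Each point is a gene, with its average log2 signal on the horizontal axis and its log2 ratio of CREBH-Tg over WT on the vertical axis. Grey points are all 13881 genes measured on both arrays, red points the 24 stress response genes and blue points the 8 serine and one-carbon genes measured. Dotted lines mark 1.5-fold. Atf3, Chac1 and Trib3 lie above the upper line and Asns below the lower, and the other coloured points lie between the lines.

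The promoters of the 4 genes past 1.5-fold hold the core of the C/EBP-ATF response element (CARE), the DNA element to which ATF4 and C/EBP factors bind as dimers. The letters TGATGNAA were searched on both strands of RefSeq promoter windows of build GRCm38.p6, which run from 250 bases before to 50 bases after each annotated gene start. The motif was chosen after the values of the genes were known. A window was found for 29 of the 35 genes, and 7 of these 29 (24.1%) held a match, where 4.51% of 27025 genes with a window did. Many of the 35 genes were listed as part of the ATF4 response, so the higher share may follow from the choice of list. The 7 genes were Atf3, Chac1, Trib3, Nupr1, Asns, Gars and Slc7a11. Of the 6 of them with a ratio, 3 were higher and 1 was lower by that size. Of the 21 measured genes with a window and no match none was either, where 2.33% of all genes were higher and 2.23% lower. The highest of these 21 was Atf5 at 1.48-fold, which passed 1.5-fold under 2 alternatives, so the split depends on the cut. Over all genes a match was not accompanied by higher ratios. The median log2 ratio was 0.020 over 332 measured genes with a match and 0.027 over 10731 without, and of the 332 genes 2.71% were higher by 1.5-fold or more and 4.52% lower. The 4 windows shown whole are those of the genes past 1.5-fold. They read 5′ to 3′ on the strand of the gene, with the match in capitals.
Atf3, chr1:191183284-191183583, - strand: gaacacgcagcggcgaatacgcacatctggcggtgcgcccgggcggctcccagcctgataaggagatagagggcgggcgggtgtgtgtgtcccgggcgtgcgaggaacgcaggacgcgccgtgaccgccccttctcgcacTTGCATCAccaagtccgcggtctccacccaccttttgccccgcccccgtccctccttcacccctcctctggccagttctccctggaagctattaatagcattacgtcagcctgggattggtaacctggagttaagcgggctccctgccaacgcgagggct
Chac1, chr2:119350992-119351291, + strand: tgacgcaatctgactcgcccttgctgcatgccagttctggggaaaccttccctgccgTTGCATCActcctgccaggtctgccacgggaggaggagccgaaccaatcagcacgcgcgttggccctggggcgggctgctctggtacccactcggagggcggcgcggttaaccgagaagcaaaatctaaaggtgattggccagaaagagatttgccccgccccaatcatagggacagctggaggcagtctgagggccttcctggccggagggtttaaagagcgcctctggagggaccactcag
Trib3, chr2:152344011-152344310, - strand: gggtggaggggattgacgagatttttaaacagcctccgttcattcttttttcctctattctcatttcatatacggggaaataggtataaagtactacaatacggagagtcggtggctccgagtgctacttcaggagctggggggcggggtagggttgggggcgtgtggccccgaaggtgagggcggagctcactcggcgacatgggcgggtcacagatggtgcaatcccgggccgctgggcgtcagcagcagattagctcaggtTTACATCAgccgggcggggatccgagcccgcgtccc
Asns, chr6:7693160-7693459, - strand: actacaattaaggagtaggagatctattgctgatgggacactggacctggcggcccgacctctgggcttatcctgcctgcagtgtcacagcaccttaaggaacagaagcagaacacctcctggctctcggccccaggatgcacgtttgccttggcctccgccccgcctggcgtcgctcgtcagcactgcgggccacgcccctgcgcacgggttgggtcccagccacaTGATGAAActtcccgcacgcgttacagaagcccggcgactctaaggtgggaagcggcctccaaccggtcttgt
The Asns match lies on the strand of the gene at bases 228 to 235 of its window. The matches of Atf3, Chac1 and Trib3 lie on the opposite strand, at bases 141 to 148, 58 to 65 and 265 to 272. Shorter stretches around the match are shown for Nupr1, which was higher, for Gars, which was near equal, and for Slc7a11, which holds 2 matches on opposite strands and was not well above background on either array.
Nupr1, chr7:126625562-126625591, - strand: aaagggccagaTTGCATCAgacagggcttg
Gars, chr6:55037960-55037989, + strand: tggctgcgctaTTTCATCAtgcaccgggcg
Slc7a11, chr3:50443642-50443690, - strand: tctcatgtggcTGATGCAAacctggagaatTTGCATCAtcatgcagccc
The promoter of a gene that was lower and those of genes that were higher thus held the same motif. A second motif, TGACGT, is the core of the cyclic AMP response element (CRE). It was present in the windows of 5 of the 29 genes, or 17.2%, where 8.37% of genes with a window held it. These were Atf3, Eif2ak4, Mthfd1l, Ppp1r15a and Psph, and only Atf3 held both motifs, at places that do not overlap. Among measured genes with a window, 1325 held the CRE core and 9738 did not. The shares over all windows take in genes not measured here, so for neither motif are they a matched background. A match is a description of the sequence and does not show that a factor binds there.

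**Figure D3:**
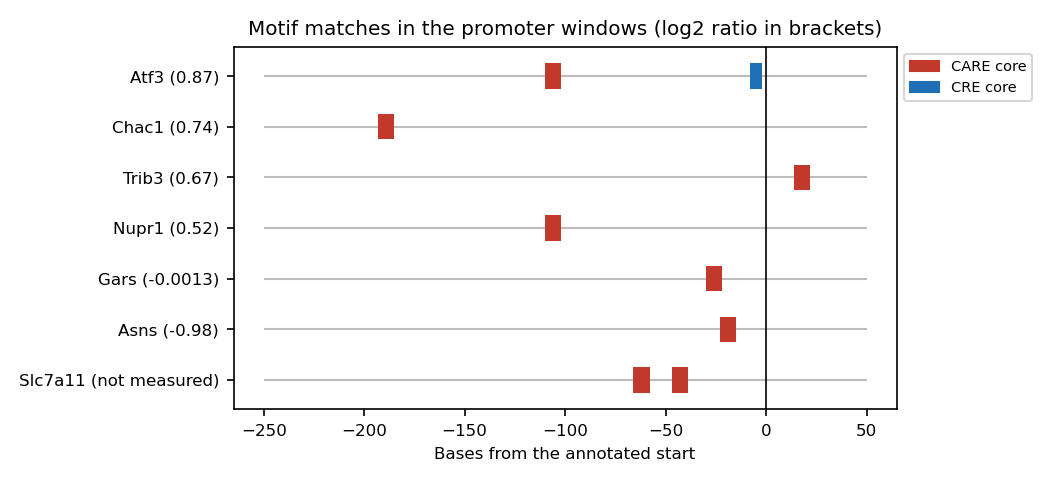
The horizontal axis is the distance in bases from the annotated gene start, and each row is the promoter window of a gene that holds the CARE core, with its log2 ratio of CREBH-Tg over WT in brackets. Red boxes are CARE core matches and the blue box in the Atf3 row is a CRE core match. The match lies upstream of the start in 6 of the 7 genes and downstream of it in Trib3.

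Among the transcription factors of the response, Atf3 and Atf5 were higher in CREBH-Tg liver and Atf4, Ddit3 and Cebpg were near equal. Atf3, a stress-induced repressor and activator of the ATF family, had a signal of 4.44 in CREBH-Tg and 2.44 in WT, with processed intensities of 1371 in CREBH-Tg and 811 in WT. Its log2 ratio was 0.87 (1.82-fold), against a spot noise range of 0.17, and stood at percentile 99.1 among all genes. Atf5, an ATF4 relative that is abundant in hepatocytes and is linked to the stress response of mitochondria, had a signal of 257 in CREBH-Tg and 174 in WT, a log2 ratio of 0.57 with a spot noise range of 0.095. Atf4 itself, whose protein is set mainly by translation, had a signal of 74.96 in CREBH-Tg and 71.98 in WT. Its log2 ratios were 0.059 and 0.099 at its 2 probes, and the sign at the brighter probe turned with quantile normalization (-0.031), loess and the authors' value table. Ddit3, which encodes the factor CHOP that acts in prolonged stress, had a signal of 1.001 in CREBH-Tg and 0.968 in WT, a log2 ratio of 0.049 that was below 0 with the authors' value table. Cebpg, a dimer partner of ATF4, had a signal of 2.85 in CREBH-Tg and 2.66 in WT, a log2 ratio of 0.097. The ratios of Atf4, Ddit3 and Cebpg lay within spot noise. The higher signals of Atf3 and Atf5 therefore stood beside near-equal signals for the mRNAs of Atf4 and Ddit3.

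**Figure D4:**
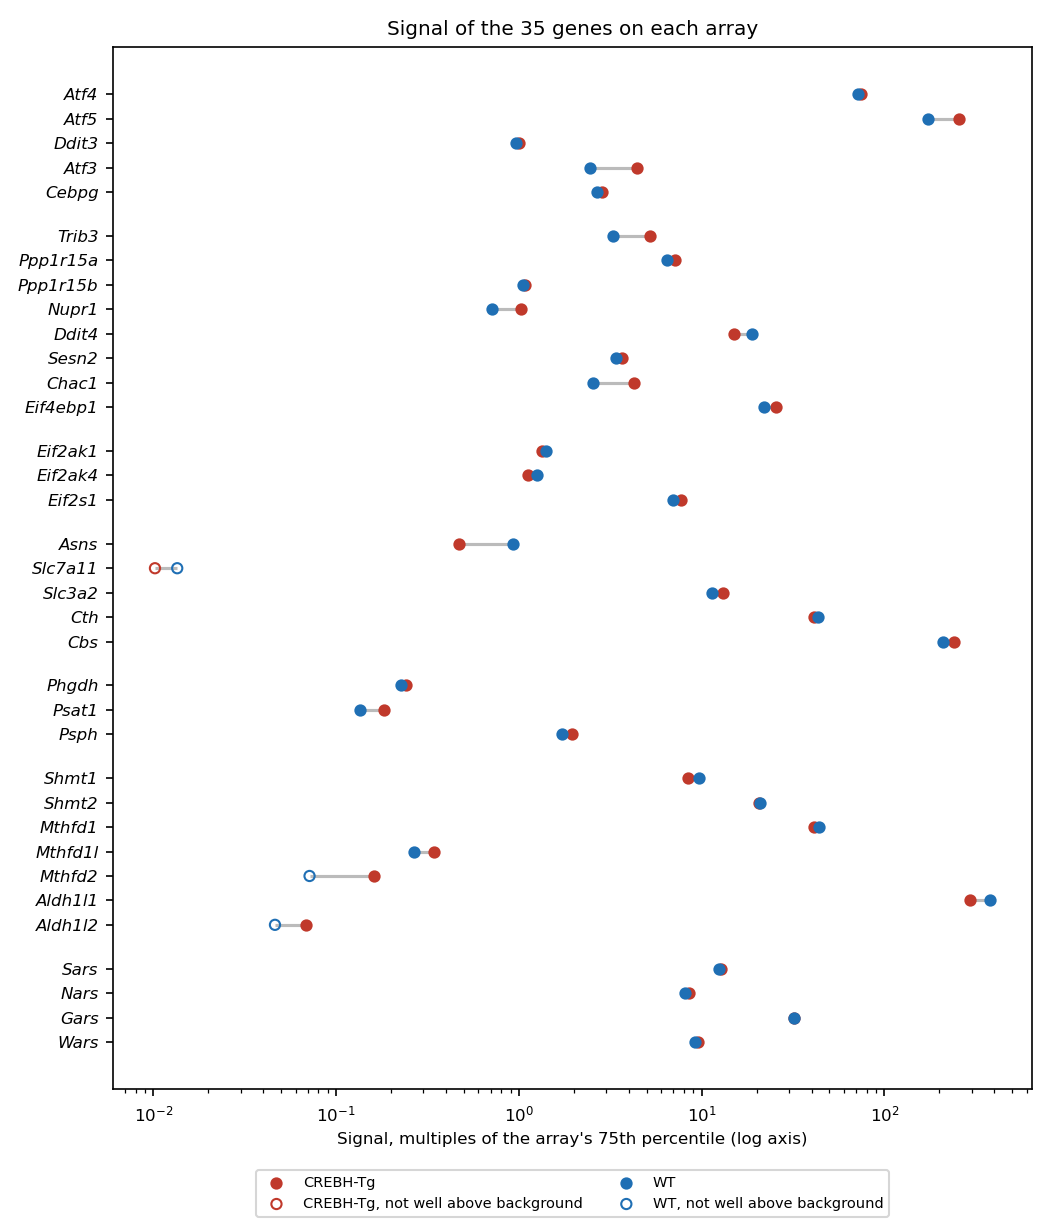
The horizontal axis is the signal in multiples of the 75th percentile of the array, on a log axis, for the 35 genes in order of role. Red points are the CREBH-Tg array, blue points the WT array and open points values not well above background. Slc7a11 has open points on both arrays, and Mthfd2 and Aldh1l2 on the WT array only.

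Of the feedback and effector genes, Chac1, Trib3 and Nupr1 had the highest ratios and Ddit4 the lowest. The log2 ratio was above 0 for 7 of 8, where 56.2% of all genes were, and the median was 0.19, against 0.027 over all genes. Ppp1r15b is among the 7 and was below 0 with the authors' value table (-0.031). Chac1, which breaks down glutathione, had a signal of 4.26 in CREBH-Tg and 2.56 in WT, with processed intensities of 1314 in CREBH-Tg and 851 in WT and a log2 ratio of 0.74 (1.67-fold). Trib3, a pseudokinase that restrains ATF4 and the insulin-responsive kinase AKT, had a signal of 5.23 in CREBH-Tg and 3.29 in WT, with processed intensities of 1615 in CREBH-Tg and 1094 in WT and a log2 ratio of 0.67 (1.59-fold). Their spot noise ranges were 0.17 for Chac1 and 0.095 for Trib3. Nupr1, a small chromatin-linked stress protein, had a signal of 1.03 in CREBH-Tg and 0.717 in WT, a log2 ratio of 0.52. These 3 genes lay between percentiles 97.1 and 98.6 among all genes.

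The eIF2 phosphatase subunits were closer to equal. Ppp1r15a, the stress-induced subunit known as GADD34, had a signal of 7.19 in CREBH-Tg and 6.43 in WT, a log2 ratio of 0.16. Ppp1r15b, the constitutive subunit, had a signal of 1.08 in CREBH-Tg and 1.06 in WT, a log2 ratio of 0.030. Of the genes that restrain the growth kinase complex mTORC1 or act below it, Sesn2, a leucine sensor, had a signal of 3.67 in CREBH-Tg and 3.38 in WT, a log2 ratio of 0.12 within spot noise. Eif4ebp1, which blocks cap-dependent translation, had a signal of 25.7 in CREBH-Tg and 22.1 in WT, a log2 ratio of 0.22 beyond it. Ddit4, a stress- and glucocorticoid-responsive inhibitor of mTORC1, was the only lower gene among these 8, with a signal of 15.1 in CREBH-Tg and 18.9 in WT and a log2 ratio of -0.32 against a spot noise range of 0.095.

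The sensors of the response were near equal. Eif2ak1, the heme-sensing kinase HRI, had a signal of 1.33 in CREBH-Tg and 1.41 in WT, a log2 ratio of -0.077. Eif2ak4, the amino acid-sensing kinase GCN2, had a signal of 1.13 in CREBH-Tg and 1.26 in WT, a log2 ratio of -0.16. Both ratios lay within spot noise, and that of Eif2ak1 turned to 0.012 with scaling to the median. Eif2s1, the subunit of eIF2 that these kinases phosphorylate, had a signal of 7.68 in CREBH-Tg and 7.01 in WT at its brighter probe, a log2 ratio of 0.13, and its other probe gave -0.041. An mRNA array does not measure the phosphorylation of eIF2 or the activity of the kinases.

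Genes of amino acid supply went in opposite directions. Asns, which makes asparagine and is a standard readout of ATF4, had a signal of 0.472 in CREBH-Tg and 0.931 in WT, with processed intensities of 146 in CREBH-Tg and 310 in WT. Its log2 ratio of -0.98 (1.97-fold lower) compares with a spot noise range of 0.17, which follows from its average signal on both arrays. The CREBH-Tg signal alone was as low as in dim genes, for which the range was 0.40. Of all genes, 0.692% had a ratio as low or lower. The ratio was -0.71 after normexp background correction and -1.04 with the authors' value table. The authors' values and scaling to detected probes alone put it past 2-fold. Slc3a2, the heavy chain of several amino acid exchangers, had a signal of 13.0 in CREBH-Tg and 11.3 in WT, a log2 ratio of 0.20. Its light chain partner Slc7a11, the cystine importer, was not well above background on either array. In transsulfuration, the route from homocysteine to cysteine, Cbs had a signal of 241 in CREBH-Tg and 211 in WT, a log2 ratio of 0.19. Cth, the enzyme of the next step, had a signal of 41.1 in CREBH-Tg and 43.5 in WT, and its 2 probes gave log2 ratios of -0.082 and -0.019, both within spot noise. The sign for Cth turned to 0.0070 with scaling to the median. Asns was thus lower in the same pool in which Chac1, Trib3 and Atf3 were higher.

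The enzymes of serine synthesis from glycolysis were dim or moderate in signal, and their probes gave unlike ratios. Phgdh, the entry enzyme, had a signal of 0.242 in CREBH-Tg and 0.226 in WT at its brighter probe, a log2 ratio of 0.097. Its other probe gave 0.69, and the spot noise range for such dim probes was 0.40. Psat1, the aminotransferase of the second step, had a signal of 0.182 in CREBH-Tg and 0.136 in WT, a log2 ratio of 0.42, while its other probe gave -0.23 and the ratio was 0.065 after normexp. Psph, the phosphatase of the last step, had a signal of 1.96 in CREBH-Tg and 1.72 in WT, with log2 ratios of 0.19 and 0.061 at its 2 probes. The first of these lay beyond spot noise. The probes of Psat1 disagreed in direction, so no direction can be given for it.

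Cytosolic and mitochondrial folate enzymes, which carry the carbon taken from serine, gave lower values in the cytosol and mixed values in mitochondria. In the cytosol, Aldh1l1, which oxidises the formyl group of folate to carbon dioxide and is abundant in hepatocytes, had a signal of 294 in CREBH-Tg and 380 in WT, a log2 ratio of -0.37 (1.29-fold lower) against a spot noise range of 0.095. Shmt1, which moves the carbon of serine to folate, had a signal of 8.38 in CREBH-Tg and 9.72 in WT, with log2 ratios of -0.21 and -0.11 at its 2 probes. Mthfd1, the trifunctional cytosolic enzyme, had a signal of 41.0 in CREBH-Tg and 44.1 in WT, a log2 ratio of -0.11. All 3 stayed below 0 in each of the 9 alternatives, with Mthfd1 at -0.016 under scaling to the median.

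In mitochondria, Shmt2 had a signal of 20.6 in CREBH-Tg and 20.8 in WT, a log2 ratio of -0.014 that turned with scaling to the median. Mthfd1l, which releases formate, had a signal of 0.342 in CREBH-Tg and 0.266 in WT at its brighter probe, a log2 ratio of 0.36 within the spot noise range of 0.40. Its other, dimmer probe exceeded background clearly in CREBH-Tg only, with a signal of 0.106 in CREBH-Tg and 0.0577 in WT. The plain ratio of these signals was 1.83-fold. Mthfd2, the dehydrogenase and cyclohydrolase that ATF4 is known to raise, exceeded background clearly in CREBH-Tg only, with a signal of 0.162 in CREBH-Tg and 0.0715 in WT. The plain ratio of these signals was 2.26-fold, from a single spot on each array. Neither this nor the 1.83-fold of Mthfd1l is a lower bound, since the WT spots were not clear of background. The spot noise range of 0.40 for dim genes applies to both. Aldh1l2, the mitochondrial relative of Aldh1l1, was likewise clear of background in CREBH-Tg only, at 0.0681 in CREBH-Tg and 0.0462 in WT, which gives at least 1.19-fold. The Aldh1l2 bound is approximate, since that lowest signal is not a strict detection limit and spot noise applies to it as well. The median log2 ratio over the 8 serine and folate genes measured on both arrays was 0.042, against 0.027 over all genes. Of the 8, 4 were above 0, where 56.2% of all genes were, and 4 below. Psat1, whose probes disagreed in direction, is among the 4 above 0. No test of a difference between compartments was made.

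The tRNA-charging enzymes, which ATF4 raises together under amino acid shortage, were near equal. Sars had a signal of 12.8 in CREBH-Tg and 12.4 in WT, Nars 8.49 in CREBH-Tg and 8.15 in WT, Gars 31.9 in both, and Wars 9.54 in CREBH-Tg and 9.16 in WT. Their log2 ratios ran from -0.0013 for Gars to 0.059 for Wars, all within the spot noise range of 0.095, and each sign turned under at least 1 alternative. The other probe of Wars gave -0.0099.

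Other genes of the same pathways were listed as well. Of 22 further ATF4-linked genes, 18 had a ratio, with a median log2 ratio of 0.031, and 2 were higher and none lower by 1.5-fold or more, where 2.33% and 2.23% of all genes were. The first of the 2 was the hormone gene Fgf21, with a signal of 8.26 in CREBH-Tg and 1.63 in WT and a log2 ratio of 2.34. Fgf21 is also a known target of CREBH itself. The second was the glutamine carrier Slc1a5, whose dim probes gave 0.85 and -0.075. Next were the lipoprotein receptor Vldlr at 0.45 and the serine and alanine carrier Slc1a4 at 0.44.

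The lists for eIF2 and for other tRNA synthetases had medians near 0. For 11 genes of eIF2, its exchange factor eIF2B and partners of GCN2, the median log2 ratio was 0.026 and none reached 1.5-fold. The farthest from 0 were the eIF2 subunit Eif2s3x (-0.29), the double-stranded RNA sensor Eif2ak2 (-0.23), the GCN2 inhibitor Impact (0.19) and the GCN2 activator Gcn1 (-0.12). The other probe of Impact gave -0.095. For 15 other cytosolic tRNA synthetases measured, the median was -0.028 and none reached 1.5-fold, with Rars, Dars, Eprs and Farsb farthest from 0, between -0.18 and -0.17.

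In the methionine and folate cycle, 25 of 26 genes were measured, with a median log2 ratio of -0.046 and 1 gene at least 1.5-fold lower, where 2.23% of all genes were. This was Mthfd2l, the mitochondrial relative of Mthfd2, at a signal of 0.152 in CREBH-Tg and 0.295 in WT and a log2 ratio of -0.96. It was dim. The folate hydrolase Ggh was at 0.33, and Bhmt, which remakes methionine from betaine and is abundant in liver, at -0.31, with -0.59 at the lowest of its 3 probes. Of 9 glutathione and cysteine genes, with a median of 0.086, 1 was at least 1.5-fold higher, where 2.33% of all genes were. This was Csad, an enzyme of taurine synthesis, at a signal of 57.3 in CREBH-Tg and 31.3 in WT and a log2 ratio of 0.87 with a spot noise range of 0.095. Gss, Suox and Ethe1 were at 0.28, -0.16 and -0.14.

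**Figure D5:**
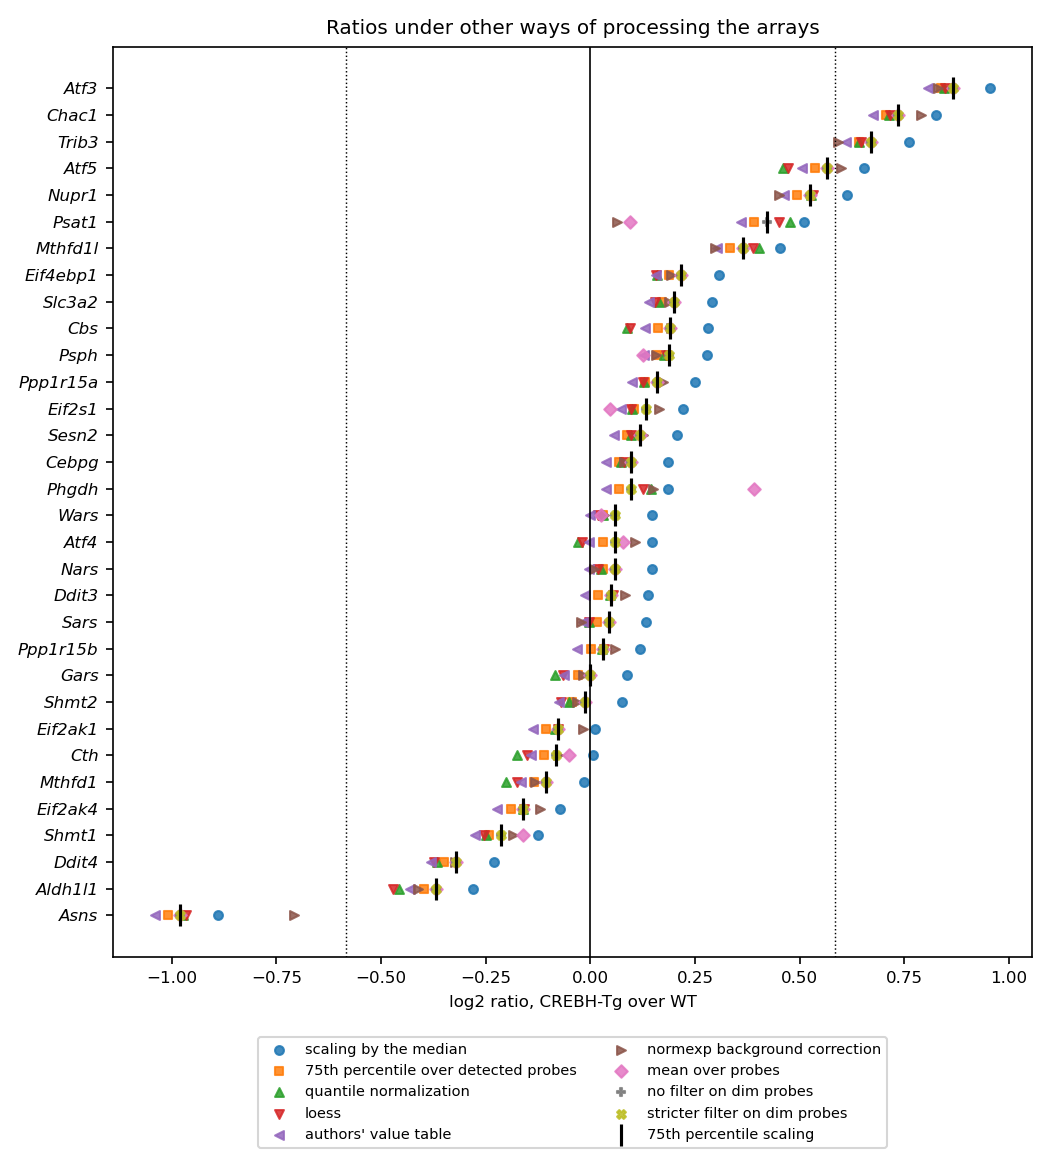
The horizontal axis is the log2 ratio of CREBH-Tg over WT, and each row is a gene, ordered by its ratio under 75th percentile scaling (black bar). Symbols are the 9 alternative ways of processing and dotted lines mark 1.5-fold. Atf3, Chac1 and Trib3 stay beyond the right-hand line and Asns beyond the left-hand line under all 9, while Phgdh and Psat1 move by more than most. For a gene with 1 probe, not all of the 9 can change the ratio.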

How the data were processed

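Total liver RNA of 1 CREBH-Tg pool and 1 WT pool was measured on 1-colour Agilent arrays. Per the file headers, Agilent Feature Extraction 10.10.1.1 gave the spot values, the array design is annotated to mm9, and both arrays carry the same scan time. The authors deposited its processed signal, an intensity from which background has been subtracted. The deposited median spot and local background intensity are raw, and flags mark spots well above background. The authors' value table holds that intensity multiplied by a constant for each array (2.68 for CREBH-Tg, 2.59 for WT), by a rule not given in the sources used here.

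The log2 of the processed signal minus that of the 75th percentile of the array was taken, and 300 outlier spots and control spots were left out. Probes were named by matching 27233 of 55677 probes to RefSeq transcripts of GRCm38.p6. A gene took the value of its brightest probe well above background on both arrays. The 1.5-fold and 2-fold sizes stand in place of a test. For a gene dim on 1 array, that array's lowest clearly detected signal replaced the dim signal where it was higher, which gives a bound. Otherwise the plain ratio is given. All 35 genes are named, and of each other pathway list the 4 farthest from 0, apart from 1 gene that is not reported here. Members, lists and motifs were chosen with earlier results of these data known. Alternatives changed the scaling (median, loess with span 0.3, quantile normalization, or the 75th percentile of detected probes alone) or used the authors' value table, normexp with an offset of 50 on the median spot signal, the mean over probes, and no filter or a stricter one on dim probes (above the 25th percentile of detected signal). The gene step was tested on simulated data. Tools were Python 3.11.15, numpy 2.4.6, pandas 2.3.3, matplotlib 3.10.9, R 4.3.3 and limma 3.58.1. Precision is limited by having 1 array per genotype.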

Additional observations from a re-analysis of the deposited data

How the results depend on the processing

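The 3 genes at least 1.5-fold higher (Atf3, Chac1, Trib3) and the 1 at least 1.5-fold lower (Asns) were so under all 9 alternatives. Each has 1 probe, so averaging probes or changing the filter on dim probes left its ratio unchanged by construction. Scaling to the median or to detected probes, and the authors' value table, shift all ratios by about the same amount. Only quantile normalization, loess and normexp could move these genes singly. Scaling by the median adds 0.089 to every log2 ratio by construction. It moved the median of all members to 0.17, of stress response members to 0.17 and of serine and one-carbon members to 0.13. The number at least 1.5-fold higher became 5, with Atf5 and Nupr1, where 3.32% of all genes were. Atf5 also passed under normexp, which gave 4, where 1.04% of all genes passed. Of the values of single members under the alternatives, 213 moved by less than 1 SD of spot noise and 74 by more. The 213 include values that could not change, such as those of genes with 1 probe averaged over probes. None with a ratio beyond spot noise changed sign. With no filter on dim probes the serine and one-carbon median was 0.14, where the median of all genes was -0.012. Under that setting 1 member, Mthfd2, was at least 2-fold higher. There 4 members were at least 1.5-fold higher, where 6.76% of all genes were. With the 75th percentile over detected probes and with the values of the authors' table, Asns, 1 member, was at least 2-fold lower. The shares of all genes past 2-fold were not computed for the alternatives. Over all genes, those at least 1.5-fold higher and lower numbered 323 and 309. They numbered 144 and 82 under normexp, 1397 and 1359 with no filter, and 159 and 100 with the stricter filter. The number of genes kept was 20660 with no filter and 11509 with the stricter filter. It was 13881 under normexp, as with 75th percentile scaling. The causes of these changes were not tested. No paired analysis was possible because each genotype is 1 array. Spot noise limits the dim genes Phgdh, Psat1, Mthfd1l, Mthfd2 and Aldh1l2, and variation between mice, pools or hybridisations was not measured.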

Other observations

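The mitochondrial tRNA synthetases, a list chosen after the values of the cytosolic ones were seen, were also near equal. Of 17 genes, 15 were measured on both arrays, with a median log2 ratio of 0.0019 and none at least 1.5-fold apart. The highest was Pars2, which charges the proline tRNA, at a signal of 1.31 in CREBH-Tg and 1.06 in WT and a log2 ratio of 0.30. The lowest was the dim Wars2 at -0.28.

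Other bZIP transcription factors, the class to which ATF3, ATF4, ATF5, CHOP and CREBH belong, showed no difference of the size of Atf3. The list was likewise chosen afterwards. Of 41 genes, 39 were measured, with a median log2 ratio of 0.022 and none at least 1.5-fold apart. Beyond spot noise 9 were higher and 4 lower, close to the shares of all genes (21.0% and 13.2%). Of the 39, 18 were bright, 11 of middle signal and 10 dim. Nfil3, a repressor at D-box elements, had a signal of 8.73 in CREBH-Tg and 6.48 in WT, a log2 ratio of 0.43. The immediate early gene Fos followed at 0.39, and the lowest was the dim Creb3l2 at -0.27. The mouse Creb3l3 probe was at -0.0041, and since the transgene is human cDNA this probe does not check the genotype.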
